A study of Caenorhabditis elegans with 2 samples.

Results

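The genes described here are the nuclear genes of *Caenorhabditis elegans* for the mitochondrial respiratory chain, the ATP synthase and the mitochondrial ribosome, taken as the protein-coding genes whose symbols start with nuo-, cox-, atp-, sdh-, ucr-, mrpl- or mrps- in the Ensembl annotation of WBcel235. Of 19973 nuclear protein-coding genes the set holds 31 genes of the chain and synthase (15 cox, 6 nuo, 5 atp and 5 ucr) and 70 mitochondrial ribosomal protein genes (41 mrpl and 29 mrps). The annotation names the succinate dehydrogenase genes sdha, sdhb and sdhd, so the sdh- prefix matched none. Binding was measured by chromatin immunoprecipitation and sequencing (ChIP-seq) of tagged PAT-9, a zinc finger transcription factor required for body wall muscle, in whole late embryos of strain RW12085 (sexes pooled, age label 3 hours, embryos obtained by bleaching). The data are 1 group of 2 biological replicates with no second genotype, stage or treatment. The strain label gives a CRISPR insertion of mNG and 3xFlag at pat-9, whereas other labels name an eGFP fusion or a C-terminal GFP-FLAG tag and the antibody was against GFP, so the tagged allele cannot be settled from the labels. Chromatin came from whole embryos, so the lists do not tell in which cells a region was occupied.

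The respiratory chain passes electrons from NADH and succinate through complexes I to IV of the inner mitochondrial membrane, and the ATP synthase uses the resulting proton gradient to make ATP. Most subunits are encoded in the nucleus, but a few core subunits are encoded by mitochondrial DNA and made by the mitochondrial ribosome, whose own proteins are all nuclear products imported from the cytosol. Muscle is among the tissues with the highest demand for this system. In *C. elegans* many such genes lie in operons, where one promoter serves several genes, and many annotated 5′ ends are trans-splice sites rather than sites of initiation.

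For each gene the strongest region with its summit from 1000 bp upstream to 500 bp downstream of any annotated transcript 5′ end (the promoter window) was taken from the pooled list and from each replicate's list. Each of these lists holds 30000 regions, background included, ranked by the authors' signal value, which has meaning only within its list. The authors' 735 optimal peaks, those that passed their reproducibility filter (IDR), were the 735 strongest pooled regions. In the set, 10 genes had an optimal peak in the window (9.90%, Wilson 95% interval 5.47 to 17.3%, counting error only), against 513 of all nuclear protein-coding genes (2.57%). They were the complex IV genes cox-5A, cox-5B, cox-6A and cox-6B, the complex III gene ucr-2.2, the complex I gene nuo-2, the large mitochondrial ribosomal subunit genes mrpl-23, mrpl-39 and mrpl-45, and the small subunit gene mrps-34. Their 10 peaks were distinct, with pooled signals from 109 to 237, while the weakest of all optimal peaks had 101.3 and the strongest 991.

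The summit sequences of 6 of these peaks are printed to show what lay under the binding sites next to genes of this system. Each runs 50 bases to either side of the pooled summit, on the strand of the named gene, from the RefSeq assembly of build ce11. Capitals mark the matches, on either strand, to the searched six-letter words named after the sequences. The peak at cox-5A, a structural subunit gene of cytochrome c oxidase, covers chrIII:12904960-12905389 and its summit lay 316 bp upstream of the 5′ end. The peak at ucr-2.2, a core protein gene of complex III, covers chrX:15173480-15173909 with its summit 209 bp upstream. The peak at mrpl-39 covers chrV:1821204-1821633, 160 bp upstream of mrpl-39 and 96 bp upstream of the divergent glycosyltransferase gene gly-7. The peak at mrpl-45 covers chrIII:1202152-1202581, 359 bp upstream of mrpl-45 and 179 bp upstream of Y119D3B.12 on the other strand. The peak at mrps-34 covers chrIII:4542307-4542736, 70 bp upstream of mrps-34 and 359 bp upstream of cisd-3.1. These 5 summits lay in intergenic sequence. The peak at cox-6B covers chrIII:2785816-2786245 and its summit lay in an intron of the longest annotated form of that gene. It is shown because it shares a run of bases with the mrpl-45 site, described after the word counts.
cox-5A: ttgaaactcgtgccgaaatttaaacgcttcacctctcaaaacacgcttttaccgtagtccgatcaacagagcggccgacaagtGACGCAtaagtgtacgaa
ucr-2.2: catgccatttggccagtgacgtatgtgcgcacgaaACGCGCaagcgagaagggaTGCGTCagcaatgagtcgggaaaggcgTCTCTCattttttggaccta
mrpl-39: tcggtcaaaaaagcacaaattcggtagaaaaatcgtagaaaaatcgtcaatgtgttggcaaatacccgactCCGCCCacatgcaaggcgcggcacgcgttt
mrpl-45: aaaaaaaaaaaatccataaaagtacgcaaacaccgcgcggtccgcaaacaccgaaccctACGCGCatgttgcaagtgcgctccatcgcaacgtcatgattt
mrps-34: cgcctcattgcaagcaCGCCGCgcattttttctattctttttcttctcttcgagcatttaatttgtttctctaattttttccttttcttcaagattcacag
cox-6B: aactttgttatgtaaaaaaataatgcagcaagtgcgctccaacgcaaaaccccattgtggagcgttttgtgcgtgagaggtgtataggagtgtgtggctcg

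The words differ from site to site. The summit of ucr-2.2 held ACGCGC, then TGCGTC and then the GA repeat GAGAGA (as its reverse complement). That of mrpl-45 held only ACGCGC, that of cox-5A only TGCGTC (as its reverse complement), that of mrpl-39 only CCGCCC and that of mrps-34 only CGCCGC, while cox-6B held none. The search covered these 5 words, the ETS core CCGGAA, the NRF1 part-site word GCATGC and the E-box CAGCTG, on both strands, and no occurrences of different words overlapped in the printed sequences. ACGCGC was present at 4 of the 10 optimal summits of the set, against 67 of the 395 optimal peaks in promoter windows (16.96%) and 12.4% of all optimal peaks. Over the best summits of all 69 distinct regions at these genes it was present at 7 (10.1%), against 5.33% of the best regions of all genes. These 7 include the 4 optimal summits just counted, so the 2 comparisons are not independent. The GA repeat GAGAGA, the commonest of the 8 among all optimal peaks (19.5%), stood at 1 of the 10 and at 5 of the 69 summits (7.25%), against 11.9% of the best regions of all genes. ETS factors and NRF1 are known from mammalian promoters of nuclear mitochondrial genes. Neither of their words occurred at the 10 optimal summits. CCGGAA was at 2 of the 69 summits (2.90%), against 4.48% of the best regions of all genes, and GCATGC at 3 (4.35%), against 1.40%. A match is only a description of these letters, and its absence says nothing of the factor. ACGCGC and CGCCGC were picked for the search from earlier results of these data.

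The 10 optimal summits contained 48.5 ± 6.42% GC (SD, n = 10 regions), close to the 50.5 ± 7.23% of all 735 optimal peaks. All 69 summits at these genes averaged 42.2 ± 10.01% GC, against 41.8 ± 9.36% for the best regions of all genes (n = 7454). An exact run shared by 2 of the summit sequences was also found. The mrpl-45 sequence (bases 71 to 84) and the cox-6B sequence (bases 28 to 41, chrIII:2785981-2786081) both held the 14 bases GCAAGTGCGCTCCA in the same orientation, whereas the next longest run between any pair of the 7 summit windows compared was 9 bases. Among all 735 optimal peaks only these 2 held it (0.272%), as did 13 of the 30000 pooled regions (0.0433%), these 2 included. The run was picked because these 2 sequences share it. Their presence in both counts was therefore fixed in advance, and the shares are no test.

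**Figure D1:**
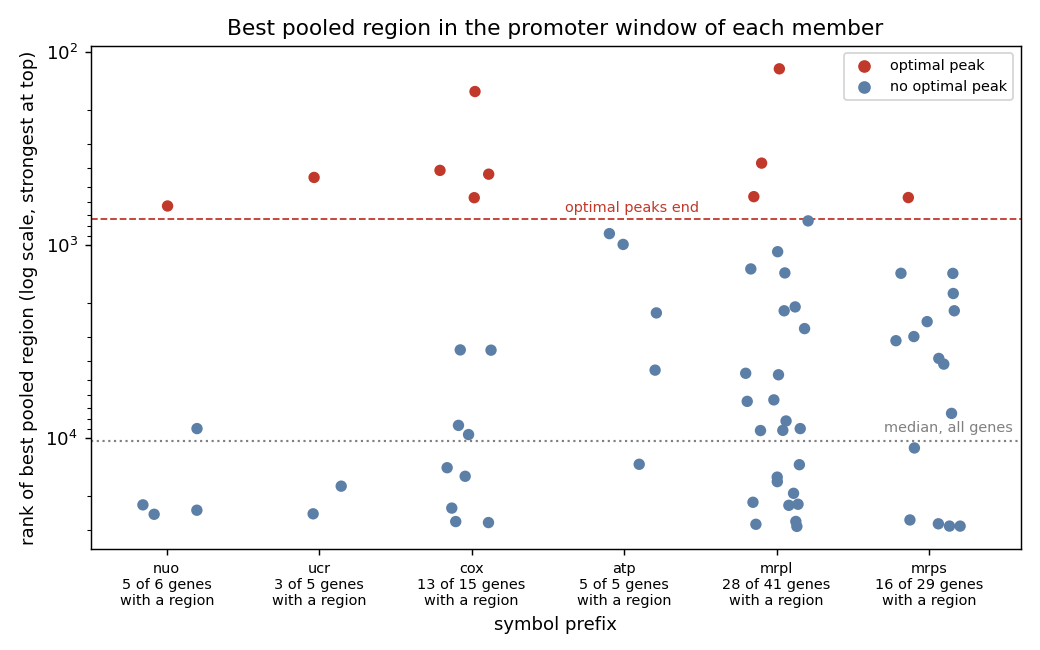
Rank of the strongest pooled region in the promoter window of each gene (vertical axis, log scale, strongest at the top) by symbol prefix, 1 point per gene with a region, spread sideways at random for legibility. Red points are optimal peaks, the dashed line marks rank 735 and the dotted line the median of all genes (10406.5). The cox genes supply 4 of the 10 red points, the atp points start just below the dashed line, and every prefix has points on the weak side of the dotted line.

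A pooled region of any strength was present at 70 genes of the set (69.3%), against 8678 of all genes (43.4%). Among genes with a region, 14.3% of the mitochondrial genes and 5.91% of all genes had an optimal peak. The median best rank was 6398.5 for the mitochondrial genes and 10406.5 for all genes, and the median signal 46.5 and 39.4. For 48 of the 70 genes the best region was among the 15000 strongest, and for 22 it was not. Over all genes it was so for 5558 of the 8678 with a region. A further 18 genes had a region in a replicate list only, and 13 had none in any of the 3 lists. Among the 1470 strongest pooled regions the mitochondrial genes numbered 18 (17.8%), against 4.9% of all genes.

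Respiratory chain and ATP synthase genes had optimal peaks at 6 of 31 (19.4%, Wilson 95% interval 9.19 to 36.3%) and mitochondrial ribosomal protein genes at 4 of 70 (5.71%, 2.24 to 13.8%). The share of all genes was 2.57%. The intervals give counting error only and were not used as a test. They overlap, and the order is the other way round for the median rank of genes with a region. That was 8764.5 for the respiratory genes and 5521 for the ribosomal ones. That median leaves out genes without a region. A pooled region was present at 83.9% of the respiratory genes and 62.9% of the ribosomal ones. Among the 1470 strongest pooled regions the respiratory genes numbered 8 of 31 (25.8%) and the ribosomal ones 10 of 70 (14.3%). Of these measures, only the median over genes with a region put the ribosomal class first.

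Complex I, NADH dehydrogenase, is the entry point for electrons from NADH. Of its 6 nuo genes, nuo-2, a subunit of the arm that transfers electrons, had the only optimal peak, at chrI:6531895-6532324. Its signal was 37.4 in replicate 1 (rank 1287), 79.3 in replicate 2 (rank 477) and 109 in the pooled list (rank 627). The summit lay 147 bp upstream of nuo-2 in the 3′ UTR of T10E9.14, which lies 19 bp ahead on the same strand. The other nuo genes were in the weak part of the list: nuo-3 had a pooled signal of 41.6 (rank 8933), nuo-4 28.4 (rank 22198), nuo-1 27.5 (rank 23664) and nuo-5 26.7 (rank 24842), and nuo-6 had no region in any list. Among the nuo genes nuo-2 therefore stood alone.

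Complex III passes electrons from ubiquinol to cytochrome c. The core protein gene ucr-2.2 had a signal of 55.7 in replicate 1 (rank 393), 71.5 in replicate 2 (rank 602) and 126 in the pooled list (rank 446), so it ranked in the strongest 735 of each list. Its paralogs ucr-2.1, with a pooled signal of 31.7 (rank 17756), and ucr-2.3, with 26.8 (rank 24703), were near the bottom of the list, and ucr-1, the other core protein gene, and ucr-11 had no pooled region in the window. Upstream of ucr-2.2 lies the channel gene ocr-3 on the same strand, with a gap of 267 bp.

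Complex IV, cytochrome c oxidase, reduces oxygen and had the most optimal peaks, at 4 of 15 cox genes (26.7%, against 2.57% of all genes). All 4 were among the 7 genes for structural subunits, whose median best rank was 498.5 over the 6 with a region. None was among the 8 genes for factors that assemble the enzyme or supply its heme and copper, whose median was 14251 over the 7 with a region. This division by role, known from yeast and mammals, was made after the values were seen. It also goes along with gene arrangement. The assembly genes cox-11, cox-15, cox-17, cox-18 and cox-19 lay within 500 bp behind a same-strand gene, and no structural gene did. Role and arrangement are thus partly mixed here, and neither was tested as a cause. The strongest was cox-5B at chrI:9788619-9788802, with its summit 3 bp upstream of the 5′ end. Its signal was 68.9 in replicate 1 (rank 233), 146 in replicate 2 (rank 131) and 211 in the pooled list (rank 160), so it was well inside the strongest 735 of both replicates.

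The other 3 cox peaks were weaker and differed in their distance from the gene and in the genes that share them. At cox-5A the signal was 56.5 in replicate 1 (rank 375), 76.2 in replicate 2 (rank 521) and 128 in the pooled list (rank 429), with no other protein-coding gene sharing the summit. At cox-6A, covering chrIII:5080670-5081099, it was 67.6 in replicate 1 (rank 242), 62.4 in replicate 2 (rank 831) and 130.1 in the pooled list (rank 410). That summit lay 839 bp upstream of cox-6A and 13 bp inside the snRNA gene F54D8.7. At cox-6B it was 43.7 in replicate 1 (rank 736), 64.5 in replicate 2 (rank 771) and 114 in the pooled list (rank 568), just outside the strongest 735 of either replicate. The cox-6B summit lay 171 bp upstream of an inner transcript start, and 83 bp upstream of Y71H2AM.20 and 821 bp upstream of the complex I gene nduc-2. Of the remaining structural genes, cox-6C had a pooled signal of 56.4 (rank 3504) and cox-4 27.8 (rank 23072), and cox-7C had no region in any list. The assembly factor genes ran from cox-14, at 56.5 (rank 3493), to cox-15, the heme A synthase gene, at 25.2 (rank 27422), with cox-10, the heme farnesyltransferase gene, at 42.2 (rank 8596), and cox-19, a gene of copper delivery, without a region in any list.

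The ATP synthase genes had no optimal peak, but all 5 had a pooled region and their median best rank, 2246, was the strongest of the 6 prefixes. The catalytic beta subunit gene atp-2, at chrIII:5227944-5228373, had a signal of 33.6 in replicate 1 (rank 1964), 60.5 in replicate 2 (rank 911) and 93.4 in the pooled list (rank 872). The alpha subunit gene atp-1, at chrI:12652069-12652498, had 38.9 in replicate 1 (rank 1105), 53.0 in replicate 2 (rank 1250) and 88.8 in the pooled list (rank 992), with its summit 7 bp downstream of the 5′ end in the 5′ UTR. Both fell just short of the 735 strongest. The atp-2 summit was shared with C34E10.10 and C34E10.12, and that of atp-1 with mcrs-1 197 bp away. Behind them came atp-5 at 65.3 (rank 2246), atp-3 at 52.2 (rank 4447) and atp-4 at 35.5 (rank 13678) in the pooled list. The authors' −log10 q does not follow this order of signal: it was 2.82 at atp-1 and 2.46 at the stronger cox-5A, both under the list's ceiling of 2.91.

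The mitochondrial ribosome translates the core respiratory subunits encoded by mitochondrial DNA. The large subunit genes had optimal peaks at 3 of 41 (7.32%) and the small subunit genes at 1 of 29 (3.45%), against 2.57% of all genes. The strongest region of the whole set was that of mrpl-23, at chrI:6212764-6212970, with a signal of 75.3 in replicate 1 (rank 193), 159 in replicate 2 (rank 110) and 237 in the pooled list (rank 122). It was also the most distant, 983 bp upstream and only just within the window, in an intron of the tRNA synthetase gene fars-1 and 44 bp ahead of the snoRNA gene T08B2.13. Small RNA genes stood within 200 bp of 2 of the 10 summits, those of mrpl-23 and cox-6A. They did so at 241 of all 735 optimal peaks, but only 395 of these lay in promoter windows, so the 2 counts are not alike. Without regions at small RNA genes, 8 genes of the set kept a peak (7.92%, from 9.90%), against 2.17% of all genes (from 2.57%).

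The other 3 ribosomal genes with an optimal peak are those whose sequences are printed above. At mrpl-39 the signal was 43.5 in replicate 1 (rank 758), 84.9 in replicate 2 (rank 411) and 135 in the pooled list (rank 376). At mrpl-45 it was 49.6 in replicate 1 (rank 525), 61.8 in replicate 2 (rank 856) and 114 in the pooled list (rank 561). At mrps-34 it was 48.9 in replicate 1 (rank 545), 67.8 in replicate 2 (rank 683) and 114 in the pooled list (rank 567). Only mrps-34 of these 3 was in the strongest 735 of both replicates, and each of the 3 summits lay between divergent genes that share it.

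Just below the optimal peaks came further ribosomal genes, some of them strong in one replicate only. At mrpl-12 the signal was 42.9 in replicate 1 (rank 792), 57.3 in replicate 2 (rank 1029) and 100.6 in the pooled list (rank 749), with the summit 519 bp upstream and nearer to Y39A1A.21 and Y39A1A.22. At mrpl-55 it was 31.1 in replicate 1 (rank 2667), 55.4 in replicate 2 (rank 1115) and 85.6 in the pooled list (rank 1082), with the summit 175 bp upstream and unshared. At mrpl-49 it was 16.1 in replicate 1 (rank 20657), 58.1 in replicate 2 (rank 999) and 78.7 in the pooled list (rank 1329). The pooled rank of mrpl-49 thus stands beside a background rank in replicate 1, and mrpl-15, with a pooled signal of 77.6 (rank 1394), was likewise at rank 14242 in replicate 1 and 1126 in replicate 2. Among the small subunit genes mrps-23 and mrps-7 followed at 77.5 each (ranks 1400 and 1402), then mrps-25 at 70.4 (rank 1782) and the large subunit gene mrpl-44 at 66.7 (rank 2091). The genes mrps-24 and mrpl-1, on either side of one intergenic stretch, shared a single region with emc-6 (signal 65.7, rank 2190). The lowest pooled signals of the set were those of mrpl-51 and mrps-28, at 24.6 each.

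**Figure D2:**
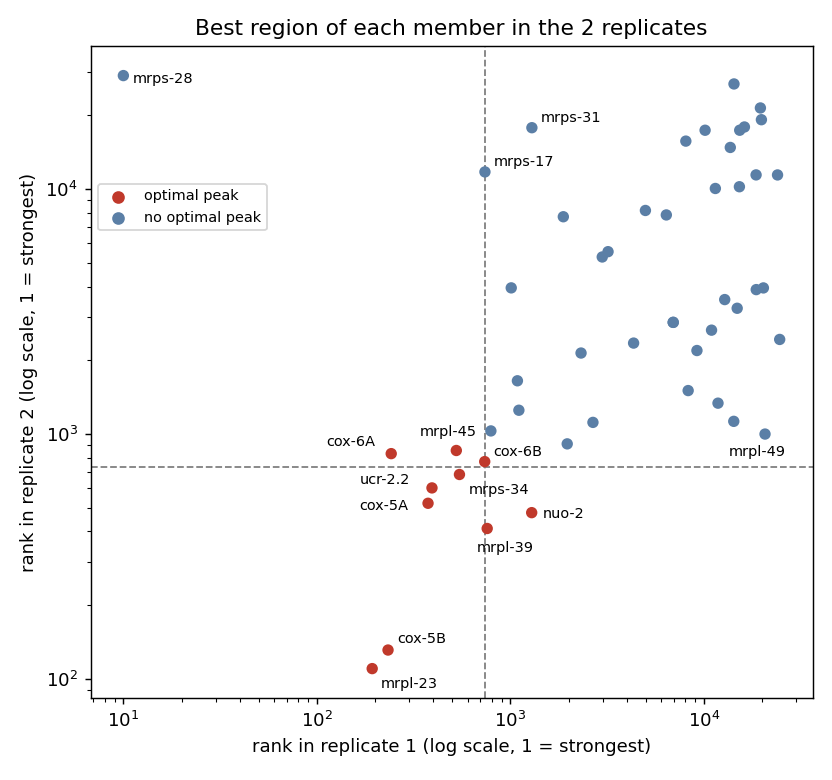
Rank of the strongest region of each gene in replicate 1 (horizontal) and replicate 2 (vertical), both on log scales with 1 the strongest, for the 51 genes with a region in both replicate lists. Red points are optimal peaks and the dashed lines mark rank 735. Of the red points 5 lie inside both lines, cox-5B and mrpl-23 are well apart from the others, and mrps-28 stands alone at rank 10 in replicate 1 and rank 29112 in replicate 2.

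The replicates are the only measure of spread in this design. A region was found at 68 genes in replicate 1 and at 70 in replicate 2, and 51 had one in both. Of the 735 strongest regions of each replicate, those of replicate 1 marked 8 genes of the set (7.92%), against 2.29% of all genes, and those of replicate 2 marked 7 (6.93%), against 2.51% of all genes. The genes in the strongest 735 of both numbered 5: mrpl-23, cox-5B, cox-5A, ucr-2.2 and mrps-34. Of the other optimal peaks, those of cox-6A and mrpl-45 were in the strongest 735 of replicate 1 only and those of mrpl-39 and nuo-2 in those of replicate 2 only, while cox-6B was in neither.

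Over the 51 genes Spearman's rho between the replicate signals was 0.525, against 0.461 over 5852 genes of all kinds, given as a description since sites share their libraries. Within the 10 genes with an optimal peak rho was 0.236, and within the 41 without one it was 0.199. Summits of the 10 optimal peaks lay a median of 15 bp apart between the replicates, and 7 were within 50 bp. Over all 51 genes the median gap was 72 bp and 39.2% were within 50 bp. Over the 5852 genes of all kinds, also with optimal peaks included, these were 163 bp and 25.8%. For the 41 genes of the set with a region in both lists but no optimal peak, the median gap was 168 bp and 13 (31.7%) were within 50 bp. In most of these weaker windows the lists therefore did not mark the same spot to within 50 bp. The largest ratios between replicate ranks were those of mrps-28, mrpl-49, mrps-17 (rank 738 in replicate 1, 11764 in replicate 2) and mrps-31 (rank 1290 in replicate 1, 17830 in replicate 2).

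The case of mrps-28 came from the edge of the window. A site at the snoRNA gene Y43F8C.22, in an intron of Y43F8C.7, had a pooled signal of 538 (rank 9) and ranked 10 in replicate 1 and 9 in replicate 2. Its summit lay 968 bp upstream of mrps-28 in replicate 1 but 1007 bp upstream in the pooled list, just outside. Other optimal peaks just beyond the window were at ucr-11, 1320 bp upstream with a signal of 263 (rank 97), and at mrps-21, 1044 bp upstream with 114 (rank 557), while mrpl-23 at 983 bp was just inside. With the window opened to 2000 bp upstream, 13 genes of the set had an optimal peak (12.9%), against 3.48% of all genes.

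**Figure D3:**
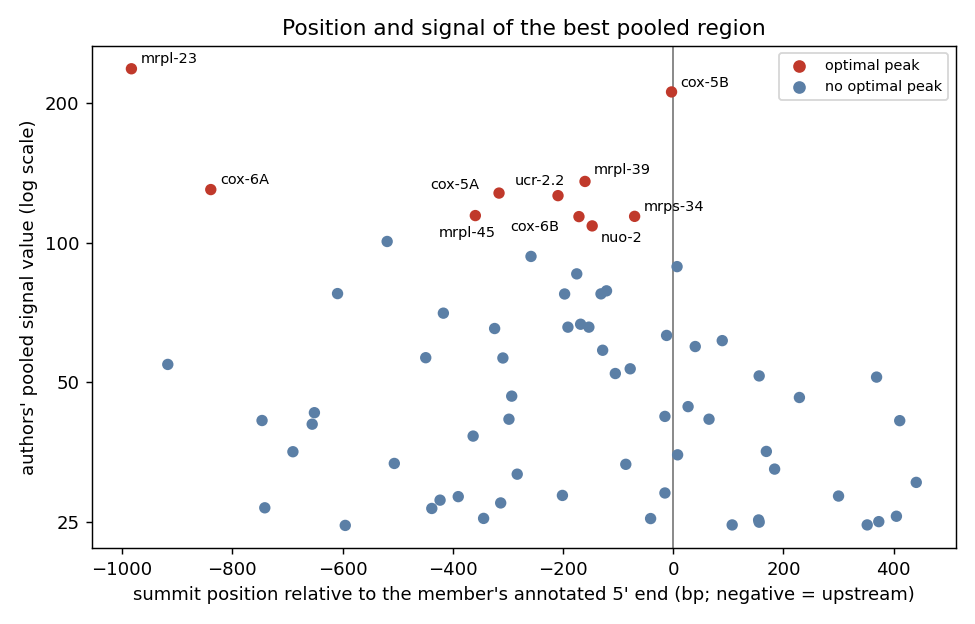
Pooled signal (vertical, log scale) of the strongest region of each of the 70 genes against the position of its summit relative to the annotated 5′ end (horizontal, in bp, negative upstream). Red points are optimal peaks. All 10 red points are upstream, 8 of them within 400 bp, and no region downstream of the 5′ end is red.

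The summits of the 70 genes lay a median of 164 bp upstream of the 5′ end (quartiles 362 bp upstream and 22.3 bp downstream), with 50 upstream (71.4%), against a median of 207 bp and 72.5% upstream for all genes. Of the 70 summits 34 were intergenic (48.6%, against 51.1% of all genes with a region), 20 in coding exons (28.6%, against 19.05%), 8 in introns, 4 in 5′ UTRs and 4 in 3′ UTRs. The intergenic summits included 7 of the 10 optimal peaks and those in coding exons none. Over all genes 411 of the 513 with an optimal peak (80.1%) had it in intergenic sequence and 12 (2.34%) in a coding exon. The gene of the set was the one with the nearest 5′ end for 7 of the 10 optimal peaks. The exceptions were mrpl-39, mrpl-45 and cox-6B, and 4 of the 10 summits were shared with the window of another protein-coding gene.

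**Figure D4:**
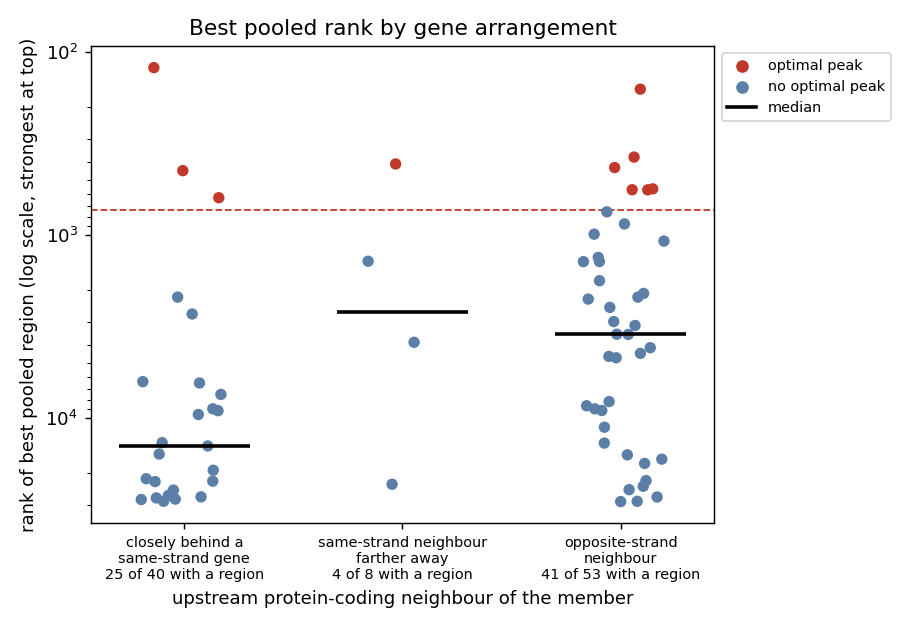
Rank of the strongest pooled region (vertical, log scale, strongest at the top) by the arrangement of the nearest protein-coding gene upstream, 1 point per gene, spread sideways at random. Red points are optimal peaks, black bars are medians and the dashed line marks rank 735. Genes closely behind a same-strand neighbour have a median of 14251 and those with an opposite-strand neighbour 3493, with points of both kinds across the range.

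Genes with an opposite-strand neighbour upstream had stronger regions than genes closely behind a same-strand one. For 40 genes of the set (39.6%, against 20.6% of all genes) a same-strand gene ended within 500 bp upstream or overlapped the 5′ end. Closely spaced genes on 1 strand are the arrangement seen in operons. Among those 40, 25 had a region, 3 had an optimal peak (7.5%, against 1.61% of all genes so arranged), and the median rank was 14251, against 10980. With an opposite-strand neighbour upstream, 41 of 53 genes had a region, 6 had an optimal peak (11.3%, against 3.79%), and the median rank was 3493, against 9380. The 8 genes with a more distant same-strand neighbour had 1 optimal peak, at cox-6A (12.5%, against 1.46%), and a median rank of 2630.5 over only 4 with a region, against 11723. No operon annotation was used, so these are neighbours by position only. Position was taken from the outermost annotated 5′ end, which for cox-6B is not the inner transcript start near its peak. The respiratory genes stood closely behind a neighbour in 11 of 31 cases (35.5%) and the ribosomal ones in 29 of 70 (41.4%).

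For genes of the same pathway that carry other names, the respiratory list had 4 optimal peaks among 36 genes (11.1%, against 2.57% of all genes). They were at the complex I genes nduf-11 (pooled signal 112, rank 591) and nduf-2.2 (109, rank 618, shared with dlc-1), the cytochrome c1 gene cyc-1 (105, rank 679) and the ATPase inhibitor gene mai-1 (104, rank 704, with its summit 484 bp downstream of the 5′ end). The next were the cytochrome c gene cyc-2.1 at 92.2 (rank 909, shared with tctn-1) and nduf-6 at 86.1 (rank 1067, shared with nars-1). None of the succinate dehydrogenase genes had an optimal peak. These 4 signals lay below the median of all optimal peaks, 137, as did those of 8 of the 10 prefixed genes with a peak.

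Stronger sites were at genes of the citric acid cycle and pyruvate dehydrogenase, which feed the chain with reduced cofactors. Of 19 such genes 4 had an optimal peak (21.1%) and the median rank of the 17 with a region was 2440. The isocitrate dehydrogenase gene idhg-1 had a signal of 170.3 in replicate 1, 218 in replicate 2 and 394 in the pooled list (rank 31), at a summit shared with mlcd-1. These signals were above every gene of the set in all 3 lists, except mrps-28 in replicate 1. It was followed in the pooled list by dlst-1 at 192 (rank 200), sucl-1 at 152 (rank 314) and the aconitase gene aco-2 at 118 (rank 520, shared with eef-1B.1). These latter signals lay below those of mrpl-23 (237) and cox-5B (211). Without an optimal peak, dld-1 at 90.6 (rank 938, shared with nspg-9) and idh-2 at 77.9 (rank 1381, shared with C34F6.7) came next.

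The genes for proteins of the cytoplasmic ribosome give a like class with the same kind of product. The mitochondrial ribosomal protein genes had an optimal peak at 5.71% and a pooled region at 62.9%, with a median rank of 5521. The 78 cytoplasmic ones had an optimal peak at 14 (17.9%, against 2.57% of all genes) and a region at 89.7%, with a median rank of 2747.5. Their strongest signal was 562, against 237 for the mitochondrial class, at the mrpl-23 site near a snoRNA gene. The next signal of the mitochondrial class was 135, at mrpl-39. Regions at small RNA genes were kept in this comparison for both classes. A single region belongs to both: the region between mrpl-49 and rpl-28, below the optimal peaks, was 121 bp upstream of mrpl-49 and 398 bp upstream of rpl-28.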

How the data were processed

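ChIP-seq of tagged PAT-9 was done on 2 biological replicates of whole late embryos (1 group). A text deposited with the lists says that regions were called for each replicate and for both together, each with a control alignment, and that IDR then gave the optimal list. Coordinates are on ce11, per the labels, with aligner, peak caller and IDR threshold not given in the sources used here. Control reads were not analysed here. The signal value and the −log10 q of each region are the authors' own deposited values. Depth is unknown, so the precision rests on 2 replicates.

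Regions were ranked by signal within a list. A summit was given to every gene with a transcript 5′ end (Ensembl release 115) that had it within 1000 bp upstream or 500 bp downstream. Small RNA genes counted within 200 bp of a summit, and words were searched 50 bases to either side of it. Genes named were those with an optimal peak, the next 5, up to 4 best-ranked per prefix, up to 4 with the largest ratio of replicate ranks and the 2 lowest, and in each other list those with an optimal peak and the next 2. Other names were chosen after their values were seen. The genes, lists and measures were chosen with earlier results of these data known, so no test was made and shares stand beside those of all genes. The counting was tested on simulated data. Alternatives were other windows, gene assignments, thresholds and summit windows, and leaving out each replicate. Tools were pandas 2.3.3, NumPy 2.4.6, statsmodels 0.14.6, SciPy 1.17.1 and matplotlib 3.10.9 under Python 3.11.15.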

Additional observations from a re-analysis of the deposited data

How the results depend on the processing

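The number of genes with an optimal peak was 10 as reported, between 7 and 13 under the other windows, assignments and gene sets, and between 7 and 8 with the 735 strongest regions of either replicate alone. Of all genes, 1.93 to 3.48% had one under those windows and assignments, and 2.29 to 2.51% with either replicate alone. With replicate 2 alone cox-6A, mrpl-45 and cox-6B were lost, and with replicate 1 alone mrpl-39, cox-6B and nuo-2 were lost and mrps-28 came in. Only mrpl-23 and cox-5B remained with the stronger 50% of the optimal peaks, a count of 2 and 1.98% of the genes, against 1.25% of all genes. With the 1470 strongest regions the count was 18. The 500 bp window and leaving out small RNA sites each lost mrpl-23 and cox-6A. The nearest 5′ end alone lost mrpl-39, mrpl-45 and cox-6B.

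The median best rank was 3493 without the genes closely behind a same-strand neighbour and otherwise between 4617 and 8165.5, with 6479.5 in replicate 2 and 8165.5 in replicate 1. The share of genes with a pooled region was 54.5% with 500 bp upstream and 250 bp downstream, against 30.7% of all genes. It was 82.2% with 2000 bp upstream (against 54.1%), 59.4% with the nearest 5′ end only (against 38.2%) and 78.2% by overlap (against 48.4%). In the replicates alone the share with a region was 67.3 to 69.3%, against 43.9 to 44.2% of all genes. Motif shares moved beyond their counting interval for 5 of 8 words with 25 bases on each side of the summit and for 1 of 8 with 100 bases. With 1 group of 2 samples no spread of a single gene's signal beyond the pair of values can be given, and the full lists include background regions. No paired analysis was possible because there is only 1 group.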

Other observations

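Other mitochondrial genes held isolated strong sites. Among 13 genes for chaperones, proteases and the mitochondrial stress response, the chaperonin gene hsp-60 had a pooled signal of 293 (rank 69, shared with Y22D7AL.10) and ubl-5, a ubiquitin-like gene of the mitochondrial unfolded protein response, 103 (rank 708), while the Hsp70 gene hsp-6 was at 81.7 (rank 1206, shared with C37H5.5) and the protease gene lonp-1 at 51.5 (rank 4652, shared with spcs-1). Among 14 tRNA synthetase and translation factor genes, ears-2 had the strongest region of all the mitochondrial genes listed, with 499 (rank 10), shared with uncp-18, and yars-2 at 64.0 (rank 2385) and pars-2 at 58.2 (rank 3182) came next. Of 14 import genes the receptor gene tomm-20 had an optimal peak (126, rank 448), and tin-9.2 and timm-23 followed at 62.9 (rank 2510, shared with dli-1 and exos-4.1) and 59.9 (rank 2937, shared with F15D3.6). Of 9 genes for mitochondrial DNA and dynamics, mtss-1, for a single-stranded DNA binding protein, had 158 (rank 297, shared with mig-22), while drp-1, the fission gene, had 71.1 (rank 1732, shared with fem-1) and polg-1, the DNA polymerase gene, 61.2 (rank 2756). Over all 6 lists of other mitochondrial genes, 13 of the 105 genes found of 110 listed had an optimal peak (12.4%), with a median best rank of 4672, against 2.57% and 10406.5 for all genes.

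By chromosome, the 10 optimal peaks at the prefixed genes were on III (5 of 31 genes, 16.1%, against 3.90% of all genes of that chromosome), I (3 of 24, 12.5%, against 3.72%), V (1 of 14, 7.14%, against 1.502%) and X (1 of 2, against 3.04%). None of 15 on II had one, against 2.29% of all genes there, and none of 15 on IV, against 2.01%.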
